A study of Mus musculus with 8 samples.

Results

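The miR-101 and miR-26 families are microRNAs (miRNAs) known to repress Ezh2, and their members were followed here in the testes of mice on a standard diet (SD) or a Western-like diet (WD). Members were taken by name, as every listed miRNA entry called mmu-miR-101a, mmu-miR-101b, mmu-miR-101c, mmu-miR-26a or mmu-miR-26b, with any arm suffix. This rule found 9 entries, 4 of the miR-101 family and 5 of the miR-26 family, among 730 miRNA entries and 20558 small RNAs of all kinds in the deposited table. The rule used names alone and no measured value. However, the study itself picked miR-101b-3p as changed by diet on these same mice, so its direction in this comparison is not independent evidence.

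Small RNA was sequenced from whole adult testis of 8 C57Bl/6 males. The 4 SD mice, kept on standard chow, are named M1N, M2N, TN1 and TN2, and the 4 WD mice, fed a diet rich in sugar and fat, are named M1W, M2W, M3W and M5W. The labels place the start of the lipid-rich diet at 4 weeks of age and mating at 4 months. They attach that diet text to the controls as well, where it was not used, and the paper's methods give a slightly younger age at the start. What the prefixes M and TN stand for is not given in the sources used here. Because all 4 WD mice carry the prefix M, the main diet comparisons are given against all SD mice and against each SD pair. Each library comes from one named mouse, and whether mice shared a cage or a preparation day is not stated. Whole testis mixes germ cells with somatic cells, so that fewer cells of a type and less RNA per cell cannot be told apart in any value below.

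A miRNA guides an Argonaute protein to messenger RNAs, mostly through pairing of its seed, bases 2 to 8, with a matching stretch of the 3′ untranslated region. Ezh2 is the methyltransferase of Polycomb repressive complex 2, which marks histone H3 for gene silencing and is needed in the male germ line. Suz12 and Eed are other subunits of this complex, and Ezh1 can take the place of Ezh2. Both families are best known as brakes on Ezh2 in tumours, where loss of miR-101 raises it. miR-26 miRNAs are made from introns of the Ctdsp genes, which encode small phosphatases.

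The mature sequences, from RefSeq (GRCm38.p6), are printed because the families are defined by their seeds, which stand in capitals, and because near-identical members decide how far their reads can be told apart.
miR-101a-3p: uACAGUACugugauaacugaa
miR-101b-3p: gUACAGUAcugugauagcu
miR-101c: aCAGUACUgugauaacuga
miR-26a-5p: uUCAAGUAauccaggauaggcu
miR-26b-5p: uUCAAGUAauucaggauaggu
miR-26a-1-3p: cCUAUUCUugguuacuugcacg
miR-26a-2-3p: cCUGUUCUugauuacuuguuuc
miR-26b-3p: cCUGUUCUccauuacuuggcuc
miR-101a-5p: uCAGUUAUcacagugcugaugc

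miR-26a-5p and miR-26b-5p have the same seed, UCAAGUA, and differ at C11U and C21U, counted from 1 at the 5′ end of miR-26a-5p. No other mature mouse miRNA in the RefSeq table shares that seed. The 3 miR-101 entries are the same core cut at different starts. miR-101b-3p begins 1 base before miR-101a-3p, and over the 18 bases they share they differ only at A16G, counted from 1 at the 5′ end of miR-101a-3p. miR-101c begins 1 base after the start of miR-101a-3p and lies wholly within it, so the listed seeds of the 3 entries differ by this shift. No other listed miRNA carries any of the 3 seeds. The minor arms miR-26a-2-3p and miR-26b-3p share the seed CUGUUCU, whereas miR-26a-1-3p differs from miR-26a-2-3p at 6 positions and can tell the Mir26a genes apart.

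In the mm9 genome (NCBIM37, GENCODE M1 annotation), each of the 5 precursors is identical to the RefSeq hairpin. Mir101a lies at chr4:101019550-101019632 on the minus strand, within an exon of the non-coding gene E130102H24Rik. Mir101b lies at chr19:29209769-29209865 on the plus strand, in an intron of Rcl1. Mir26a-1 lies at chr9:118940914-118941003 on the plus strand, in an intron of Ctdspl. Mir26a-2 lies at chr10:126432586-126432669 on the plus strand, in an intron of Ctdsp2, its last base being the first of an exon. Mir26b lies at chr1:74440884-74440968 on the plus strand, in an intron of Ctdsp1. miR-26a-5p matches the genome at 2 places, the Mir26a precursors, and its counts cannot be split between them. miR-101c matches at 9 places, 1 within Mir101a and 8 on chromosome 9, so its reads cannot be told from shortened miR-101a-3p reads. The authors allowed 2 mismatches, and miR-101a-3p fits the Mir101b precursor with 1 mismatch and miR-26a-5p fits Mir26b with 2. How reads with several matches were counted is not given in the sources used here, so each pair of near-identical members carries this uncertainty.

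The stretches of the Ezh2 3′ untranslated region that pair with the seeds are printed because they link both families to this target. They were read from the longest annotated transcript (267 bases of 3′ untranslated region, mm9, minus strand), and capitals mark the bases complementary to a seed.
first miR-101a-3p match, chr6:47480465-47480493: caggaaccttgaGTACTGTgggcaattta
second miR-101a-3p match, chr6:47480410-47480438: tgaatttgcaaaGTACTGTaacagtaatt
miR-101b-3p match, chr6:47480409-47480437: gaatttgcaaagTACTGTAacagtaattt
miR-26a-5p and miR-26b-5p match, chr6:47480276-47480304: ttgaataaagaaTACTTGAacttgttgtt

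The motifs were searched on the transcript strand only. GTACTGT, the complement of the miR-101a-3p seed, stood at positions 59 and 114 of this region, and TACTGTA, that of the miR-101b-3p seed, stood once at position 115 and overlaps the second of these. AGTACTG, that of the miR-101c seed, overlaps both. TACTTGA, that of the miR-26 seed, stood once, at position 248. Of 1583 mouse 3′ untranslated regions within 20% of this length, 1.90% hold GTACTGT, 3.28% TACTGTA, 1.71% AGTACTG and 2.46% TACTTGA. Among the other genes searched, Ezh1 held none of the motifs, Suz12 held 1 TACTTGA and Eed held 1 GTACTGT. A match of letters is a description and not a measured binding site, and the level of Ezh2 messenger RNA was not analysed here.

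Levels are given as CPM, the counts of a small RNA scaled to a common library size, with library sizes adjusted by TMM scaling, which assumes that most small RNAs do not differ between libraries. Total counts ran from 2064562 to 3253798 per mouse, so that 3 counts, the level a count of 0 allows, equal 0.933 to 1.39 CPM. The germ cell markers miR-34b-5p, miR-34c-5p and miR-449a-5p were abundant in every mouse, with a summed level of 12188 to 16026 CPM in SD mice and 12019 to 16937 CPM in WD mice, in keeping with the label of testis. The entries compared are of nearly equal length (19 to 22 bases), and no further length scaling was applied.

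Over the 8 mice, miR-26a-5p (mean 575 CPM ± 143, SD, n = 8) and miR-101a-3p (563 ± 146) were the most abundant members, at ranks 42 and 45 of the 576 mature miRNAs listed. They could not be ordered, since miR-26a-5p was the higher in 4 of 8 mice. miR-101b-3p (129.8 ± 43.3 CPM, rank 92) followed, below miR-101a-3p in 8 of 8 mice. miR-26b-5p (100.4 ± 31.1 CPM, rank 108) was below miR-101b-3p in 6 of 8 mice, so these neighbours overlapped too. miR-101c (4.57 ± 1.12 CPM, rank 335) was below miR-26b-5p in every mouse.

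Both families were dominated by one arm of one form. miR-101a-3p gave 80.4% of all counts of the miR-101 family over the 8 mice, miR-101b-3p 18.6%, miR-101c 0.664% and miR-101a-5p 0.289%. In the miR-26 family, miR-26a-5p gave 84.5% and miR-26b-5p 14.8%. The minor arms were near the detection limit, with totals over all mice of 60 counts for miR-26b-3p, 44 for miR-101a-5p, 20 for miR-26a-1-3p and 16 for miR-26a-2-3p. Their share of the reads of both arms was 2.65% for Mir26b (95% Wilson interval 2.07 to 3.4), 0.358% for Mir101a (0.267 to 0.481) and 0.286% for the Mir26a genes together (0.207 to 0.395). These intervals cover counting error only and not the spread between mice. Together the members made up 1.33% of all miRNA counts, and 0.941% to 1.69% in single mice.

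**Figure D1:**
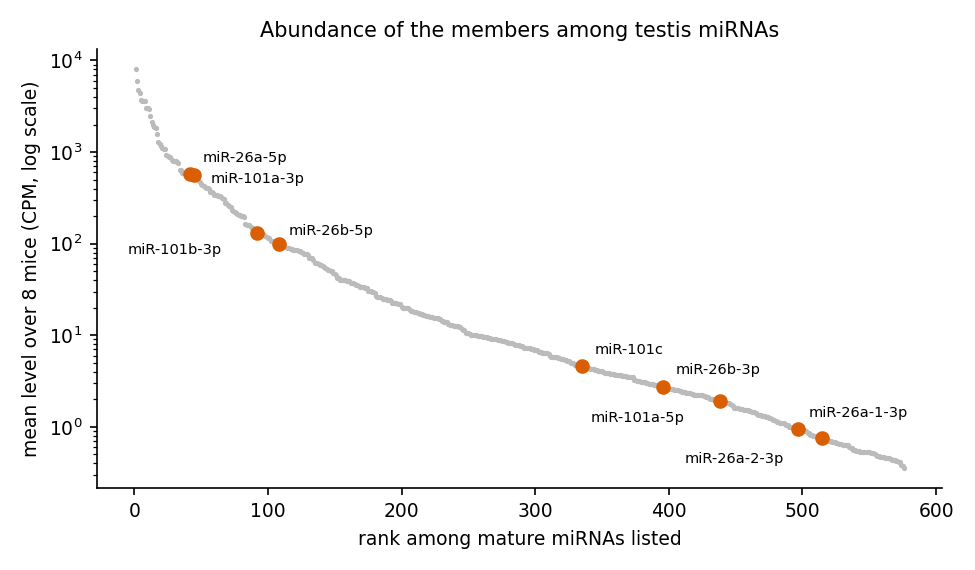
Mean level over the 8 mice (CPM, log axis) against rank for the 576 mature miRNAs listed, in grey, with the 9 members of the miR-101 and miR-26 families as coloured points. miR-26a-5p and miR-101a-3p lie side by side at ranks 42 and 45, while miR-101c and the 4 minor arms lie from rank 335 on.

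The diet comparison asked which members differed between WD and SD testes. By the criteria the study applied to miRNAs, an unadjusted p of at most 0.1 and a fold change of at least 1.5, only miR-101b-3p of the members was called, at a higher level in WD mice (edgeR quasi-likelihood test). Its call was lost without M1N, M2N or M5W, where the log2 fold change was 0.51, 0.53 and 0.54, under the fold limit. Among the 418 miRNA entries with enough counts to be tested, 15.1% met these criteria, 7.89% at a higher and 7.18% at a lower level in WD mice. Of the 9 members, 5 were tested and the 4 minor arms had too few counts. Adjusted over all 16955 small RNAs tested, no member passed 0.05 with edgeR, DESeq2 or limma-voom, while 3, 3 and 2 of the 5 had an unadjusted p below 0.05. This unadjusted limit was passed by 16.5% of the 418 miRNA entries with edgeR, and the adjusted one by 0% of all small RNAs. With scaling factors taken within the miRNA entries alone, no member had an unadjusted p below 0.05 (edgeR). It was then 0.0731 for miR-101b-3p, 0.0504 for miR-26b-5p and 0.0625 for miR-101a-3p.

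mmu-miR-101b-3p, the less abundant miR-101 form, was measured at 72.0 CPM in M1N, 76.8 in M2N, 98.6 in TN1 and 159 in TN2. In WD mice it was at 165 CPM in M1W, 144 in M2W, 132 in M3W and 190.4 in M5W. The lowest values are those of M1N and M2N, and TN2 lies within the range of the WD mice, so the groups overlap. The means were 157.9 ± 25.5 CPM (SD, n = 4) in WD mice and 101.7 ± 40.1 (n = 4) in SD mice. The fitted log2 fold change was 0.64 (SE 0.23, 95% interval 0.15 to 1.13), with an unadjusted p of 0.0133 and an adjusted p of 0.318 (edgeR quasi-likelihood test, Benjamini-Hochberg). An exact permutation test of mean log2 CPM over the 70 assignments of mice, two-sided, gave p = 0.0857.

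miR-101a-3p, the main miR-101 form, was measured at 473 CPM in M1N, 427 in M2N, 520.1 in TN1 and 516 in TN2. In WD mice it was at 524 CPM in M1W, 904 in M2W, 555 in M3W and 586 in M5W. Every WD mouse lay above every SD mouse, M1W only narrowly, as was the case for 5.5% of the miRNA entries tested, and M2W stood far above the rest. The log2 fold change was 0.41 (SE 0.19, interval 0.01 to 0.81), with an unadjusted p of 0.0456 and an adjusted p of 0.340 (edgeR). The exact permutation p, two-sided, was 0.0286, the smallest that 4 mice against 4 can give.

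miR-26b-5p was measured at 62.0 CPM in M1N, 92.8 in M2N, 94.5 in TN1 and 79.2 in TN2. In WD mice it was at 104 CPM in M1W, 167 in M2W, 89.8 in M3W and 114 in M5W. All WD mice but M3W lay above the highest SD mouse, and M2W was again the highest. The log2 fold change was 0.53 (SE 0.21, interval 0.09 to 0.97), with an unadjusted p of 0.0211 and an adjusted p of 0.318 (edgeR). The fold lay under the limit of 1.5, and the exact permutation p was 0.0857.

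miR-26a-5p was measured at 508 CPM in M1N, 582 in M2N, 478 in TN1 and 490.04 in TN2. In WD mice it was at 591 CPM in M1W, 914 in M2W, 504 in M3W and 529.7 in M5W. Apart from M2W, the WD values lie within or just above the SD range. The log2 fold change was 0.30 (SE 0.19, interval -0.11 to 0.71), with an unadjusted p of 0.139 and an adjusted p of 0.447 (edgeR), and the exact permutation p was 0.200. miR-101c ran from 3.24 to 5.67 CPM in SD mice and from 3.42 to 6.58 in WD mice, on 7 to 18 counts per mouse. Its log2 fold change of 0.03 (interval -0.65 to 0.71) leaves a difference of either sign within its error.

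The log2 fold change was above 0 for 5 of the 5 tested members, with a median of 0.41, against a median of 0.03 and 52.4% above 0 for the 418 miRNA entries. Without the WD mouse M2W, 4 of the 5 were above 0, with a median of 0.20 against -0.10 for the miRNA entries. miR-26a-5p and miR-26b-5p share a seed, and near-identical members may share reads, so the 5 values are not independent of each other. As a sum, the miR-101 family ran from 511 to 681 CPM in SD mice and from 692 to 1058 in WD mice, and the miR-26 family from 572 to 679 and from 597 to 1092 (sums are given without a test).

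**Figure D2:**
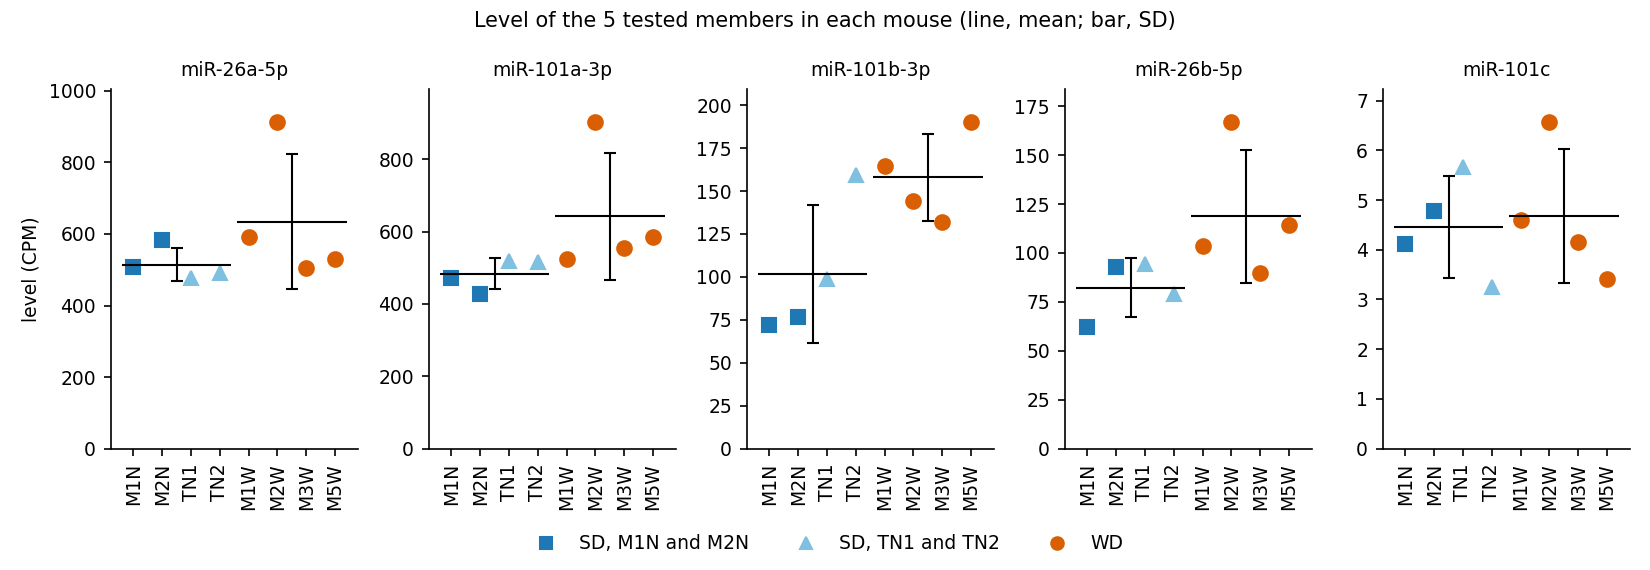
Level (CPM, linear axes from 0) of the 5 tested members in each of the 8 mice, with the mean (line) and SD (bar) of each diet group of 4. M2W is the highest point for every member shown except miR-101b-3p, whose lowest points are M1N and M2N, at 72.0 and 76.8 CPM.

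The result for miR-101b-3p turned on which SD mice served as controls. Against M1N and M2N alone its log2 fold change was 1.09 (interval 0.67 to 1.504, adjusted p = 0.00156, edgeR). Against TN1 and TN2 alone it was 0.30 (unadjusted p = 0.130, adjusted p = 0.999), and miR-101b-3p was not called. Over the whole table, 21.4% of the small RNAs had an adjusted p below 0.05 against M1N and M2N and 0.0708% against TN1 and TN2. Against M1N and M2N the criteria of the study were met by 34.9% of the miRNA entries (16% at a higher level in WD mice), and by miR-101b-3p and miR-26b-5p of the 5 members. Against TN1 and TN2 they were met by 11.7% of the entries (5.02% at a higher level) and by 0 of the 5 members. The median log2 fold change of the miRNA entries was -0.13 and 0.19, respectively. The pairs differ between themselves as well: the mean of mmu-miR-101b-3p was 74.4 CPM for the M pair of SD mice, compared with 129 CPM for the TN pair. In a fit of 3 groups, chosen after seeing the data, this difference was 0.79 on the log2 scale (SE 0.23, interval 0.30 to 1.27, adjusted p = 0.0407, edgeR), where 9.18% of all small RNAs passed. It rests largely on TN2, since without that mouse it was 0.41 (adjusted p = 0.467), whereas without M1N, TN1 or M1W it was 0.74, 1.098 and 0.79, with adjusted p of 0.213, 0.0588 and 0.0553. Leaving out an SD mouse leaves 1 library in its pair, whose spread is then assumed to be that of the other groups.

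For the other members the values against either SD pair lay closer together. miR-26b-5p had a log2 fold change of 0.61 against M1N and M2N (adjusted p = 0.0669, edgeR) and of 0.44 against TN1 and TN2 (unadjusted p = 0.0454, adjusted p = 0.999). miR-101a-3p had values of 0.51 (adjusted p = 0.0954) and 0.31 (adjusted p = 0.999), and miR-26a-5p of 0.22 and 0.39. In the 3-group fit the difference between the pairs was 0.20 for miR-101a-3p, 0.17 for miR-26b-5p and -0.17 for miR-26a-5p, none of them called. These comparisons share the WD mice and are not independent.

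**Figure D3:**
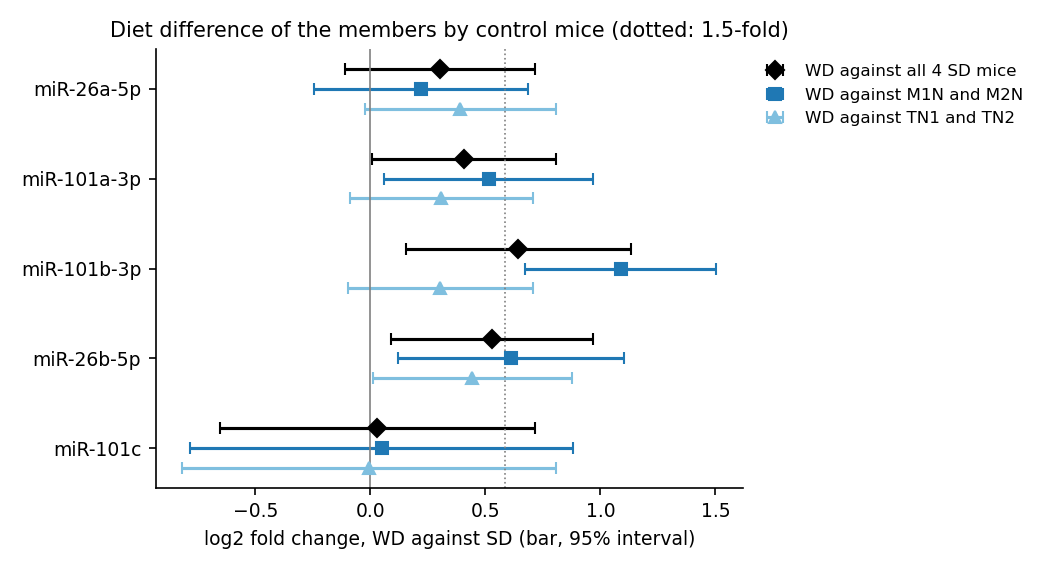
Log2 fold change of WD mice against all 4 SD mice, against M1N and M2N, and against TN1 and TN2 for the 5 tested members, as points with 95% intervals (edgeR), and a line at 0. For miR-101b-3p the value moves from 1.09 with M1N and M2N to 0.30 with TN1 and TN2, whereas the values of the other members lie closer together.

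A single WD mouse, M2W, moved the difference in the other members and in the miRNA entries as a class. M2W had the highest WD value in 4 of the 5 tested members. Without it the log2 fold change was 0.20 for miR-101a-3p (unadjusted p = 0.246), 0.32 for miR-26b-5p (unadjusted p = 0.116) and 0.08 for miR-26a-5p (edgeR), none of them with an adjusted p below 0.05. For miR-101b-3p it was 0.69 (unadjusted p = 0.0182, edgeR). The median of the 418 miRNA entries also went from 0.03 to -0.10 without M2W. In the same library the smooth muscle markers miR-143-3p and miR-145-5p summed to 5921 CPM, against 3058 to 4321 in SD mice and 3232 to 4106 in the other WD mice. The endothelial marker miR-126-3p stood at 1788 CPM in M2W, against 989 to 1537 in SD mice and 944 to 1392 in the other WD mice. miRNAs made up 12.7% of the counts of M2W and 9.23% to 10.7% in the others. The part of these shifts in the members' values was not tested.

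The other marker lists varied on both diets. The blood list held miR-142-3p, miR-223-3p, miR-451a and miR-486-5p. miR-486-5p was not among the entries, and miR-451a, a marker of red cells, was found only under its older name miR-451 after the sums were made, so it is given apart. miR-142-3p and miR-223-3p summed to 116 to 304 CPM in SD mice and 94.6 to 248 in WD mice, highest in M1N and M2W. The striated muscle markers miR-1a-3p and miR-133a-3p summed to 36.7 to 46.3 CPM and 26.7 to 51.7. Of the germ cell markers, miR-449a-5p met the criteria at a lower level in WD mice (log2 fold change -0.62, unadjusted p = 0.0211, adjusted p = 0.318, edgeR), with its highest values in M1N (2299 CPM) and M2N (1640 CPM, against 940 to 1082 in TN1 and TN2 and 835 to 1125 in WD mice). miR-142-3p met them at a higher level (0.60, unadjusted p = 0.0335, adjusted p = 0.326, edgeR), while the more abundant blood marker miR-223-3p had a value of -0.50 (unadjusted p = 0.185, adjusted p = 0.496). Against M1N and M2N the values were 0.95 (adjusted p = 0.0270) for miR-142-3p and -1.0003 (adjusted p = 0.0191) for miR-223-3p, and against TN1 and TN2 they were 0.30 and 0.28 (adjusted p = 0.999 for both). miR-451 had a log2 fold change of 0.11 (unadjusted p = 0.744, edgeR), at 37.3 to 142 CPM in SD mice and 70.3 to 128 in WD mice.

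M1N and M2N, the mice with the lowest miR-101b-3p, differed from TN1 and TN2 in several markers, but markers of one list went opposite ways. The sum of miR-142-3p and miR-223-3p was 304 and 219 CPM in M1N and M2N and 122 and 116 in TN1 and TN2, nearly all of it miR-223-3p. miR-142-3p was lower in the M pair, at 6.51 and 13.7 CPM against 15.4 and 16.7, and so was miR-451, at 63.1 and 37.3 CPM against 142 and 107. The smooth muscle sum was 4149 and 4321 CPM against 3438 and 3058, through miR-145-5p, whereas miR-143-3p was lower in the M pair, at 165 and 296 CPM against 355 and 402. The endothelial marker stood at 1499.7 and 1537 CPM against 1080.2 and 989. Of the germ cell markers, miR-449a-5p was higher in M1N and M2N, while miR-34b-5p and miR-34c-5p averaged 4824 and 8004 CPM in M1N and M2N and 5012 and 7625 CPM in TN1 and TN2. The part of these differences in the miR-101b-3p values was not tested.

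Ratios of members within one library do not depend on the scaling between libraries. The ratio of miR-101b-3p to miR-101a-3p was 0.152 in M1N, 0.180 in M2N, 0.190 in TN1 and 0.309 in TN2. In WD mice it was 0.314 in M1W, 0.160 in M2W, 0.238 in M3W and 0.325 in M5W. High and low ratios occurred on both diets, with M2W next to the lowest SD mouse. The mean was 0.259 ± 0.0767 (SD, n = 4) in WD mice and 0.208 ± 0.0691 in SD mice, a difference of 0.32 in log2 ratio (exact permutation test, two-sided, p = 0.343, adjusted over the 3 ratios 0.514). With M1N and M2N as the only controls this difference was 0.59, and with TN1 and TN2 only 0.05.

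The ratio of miR-26b-5p to miR-26a-5p was 0.188 ± 0.0186 (SD, n = 4) in WD mice and 0.160 ± 0.0309 in SD mice, a difference of 0.25 in log2 ratio (exact permutation p = 0.171, adjusted 0.514). It was 0.42 with M1N and M2N as the only controls and 0.07 with TN1 and TN2. The ratio of miR-26a-5p to miR-101a-3p, which sets one family against the other, was 0.987 ± 0.106 in WD mice and 1.08 ± 0.203 in SD mice, a difference of -0.11 (exact permutation p = 0.543). With the same control pairs it was -0.30 and 0.07. No ratio of the 3 passed the test, and the diet groups overlapped in each.

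**Figure D4:**
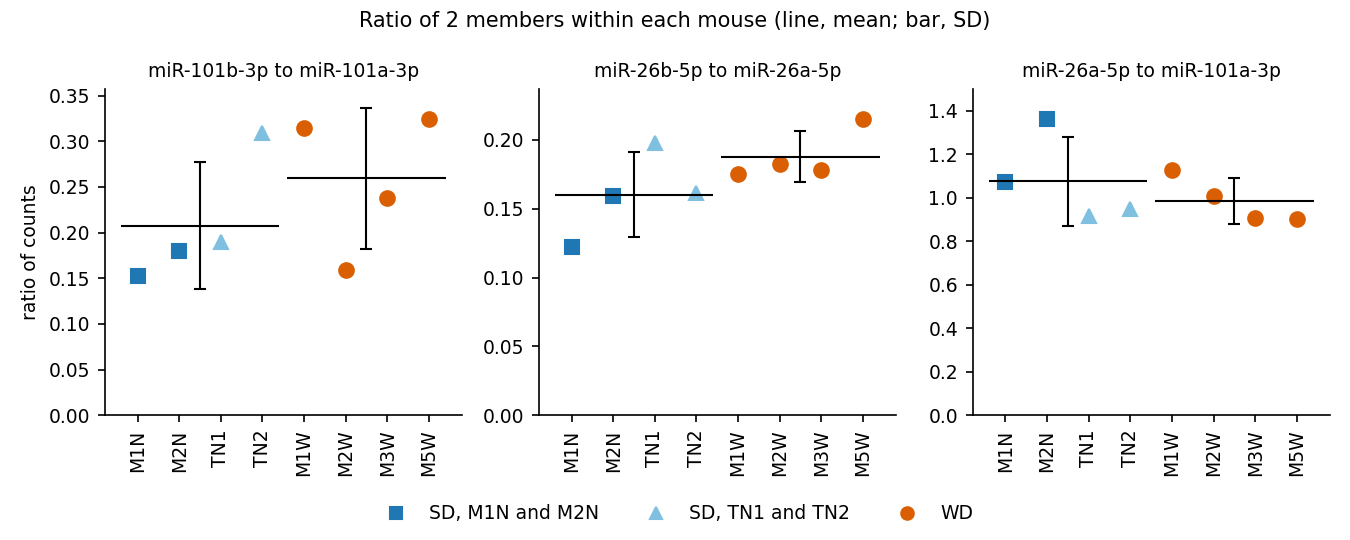
Ratio of the counts of 2 members within each mouse (linear axes from 0), with the mean (line) and SD (bar) of each diet group of 4. The diet groups overlap in all 3 panels, and miR-101b-3p to miR-101a-3p runs from 0.152 in M1N to 0.325 in M5W.

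The same comparison was made for other miRNAs known to repress Ezh2, a list of 17 names that includes the let-7 family, miR-138-5p, miR-214-3p, miR-25-3p, miR-30d-5p and miR-124-3p. Of these, 15 were listed and tested, and miR-137-3p and miR-217-5p were not among the entries. Only miR-124-3p met the criteria, at a higher level in WD mice, and none at a lower level, against 15.1% of all miRNA entries (7.89% higher and 7.18% lower). The median log2 fold change was 0.01, with 8 of the 15 above 0, close to the 52.4% of all miRNA entries. No entry of the list passed an adjusted p of 0.05 with edgeR, DESeq2 or limma-voom, and 1, 0 and 1 of the 15 had an unadjusted p below 0.05, against 16.5% of all miRNA entries with edgeR.

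miR-124-3p, a miRNA best known from neurons, was also picked by the study on these mice. It was measured at 24.0 CPM in M1N, 23.0 in M2N, 80.6 in TN1 and 80.6 in TN2. In WD mice it was at 100.9 CPM in M1W, 82.9 in M2W, 76.0 in M3W and 147 in M5W. M1N and M2N lie far below all other mice, and TN1 and TN2 lie within the WD range. The log2 fold change was 0.98 (SE 0.36, unadjusted p = 0.0168, adjusted p = 0.318, edgeR) against all SD mice. It was 2.12 (adjusted p = 0.00017) with only M1N and M2N as controls and 0.34 (unadjusted p = 0.127, adjusted p = 0.999) with only TN1 and TN2. The next smallest p-values of the list were those of let-7b-5p (log2 fold change 0.39, unadjusted p = 0.0660) and let-7c-5p (0.33, unadjusted p = 0.0947), which fell short of the fold criterion (edgeR).

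**Figure D5:**
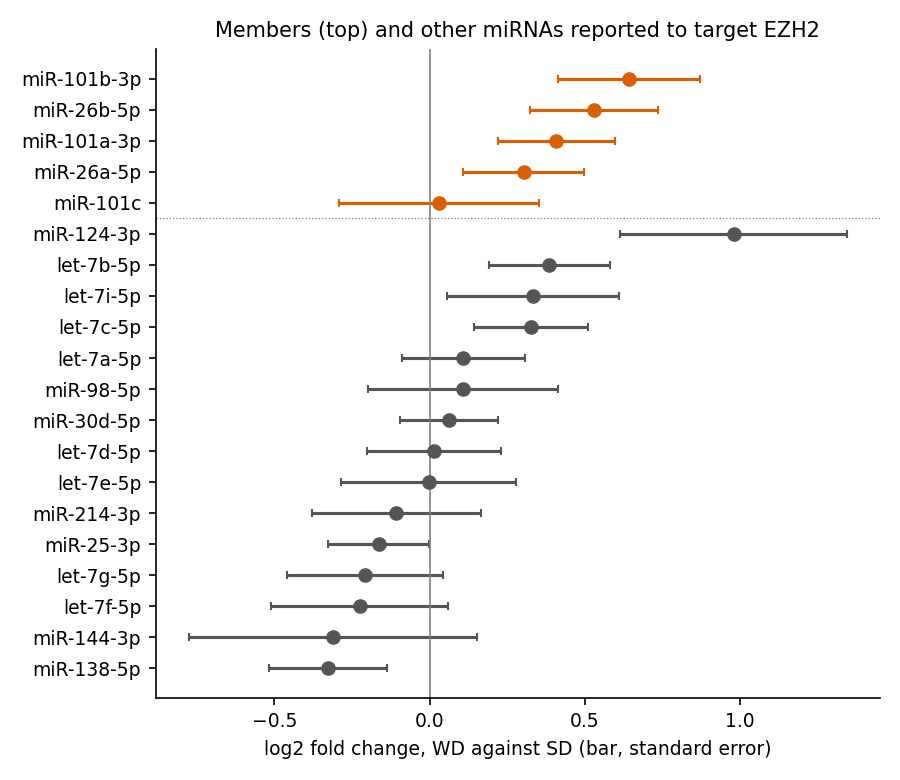
Log2 fold change of WD against SD mice, as points with the standard error as bars (edgeR, not 95% intervals). Shown are the tested members of the miR-101 and miR-26 families and the 15 other listed miRNAs known to repress Ezh2. The 15 lie on both sides of 0, with miR-124-3p at 0.98 as the highest, and the 5 members lie at 0.03 to 0.64.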

How the data were processed

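The authors sequenced small RNA (SOLiD Total RNA-seq kit) from testis of 8 mice, removed adaptors (or cut reads to 31 bases), used Bowtie against mm9 with 2 mismatches allowed, and named them after Rfam, miRBase (release 18) and a non-coding RNA collection. They deposited the resulting counts, neither pooled nor scaled, with 1 column for each mouse. DESeq is also named in the submitters' processing notes. The Bowtie version and the counting program are not given in the sources used here.

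Groups were taken from the sample titles. From the deposited counts, edgeR 4.0.16 in R 4.3.3 was run with TMM factors, filterByExpr (minimum count 10, minimum total 15), a quasi-likelihood test and Benjamini-Hochberg adjustment over all 16955 small RNAs kept. The scripts were tested on simulated data. DESeq2 1.42.0, limma-voom (limma 3.58.1), other scalings, filters, control pairs, a replicate block and each mouse left out were tried as alternatives, and the SD pair contrast with its alternatives and the fit of M1N, M2N, M1W and M2W without that block were chosen after seeing the data. All 28 pairs of libraries differed by more than sampling noise (chi-square per degree of freedom 2.56 to 24.4).

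The members and lists were chosen with earlier results of these data known. Named entries were all members, the entries of the Ezh2 list that met the study's criteria, markers fixed by name, and the 5 mature miRNAs with the highest Pearson r to miR-101b-3p. let-7b-5p and let-7c-5p, miR-451, and entries that met the criteria only under an alternative, were named after their values were seen. Mature sequences came from RefSeq, and loci and 3′ untranslated regions from NCBIM37 with GENCODE M1. p-values measure the spread between these mice.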

Additional observations from a re-analysis of the deposited data

Results flagged for a closer look

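In WD mice, the miR-101a-3p level of M2W was 904 CPM, while the other WD mice lay between 524 and 586 CPM. The gap to the nearest mouse took 0.837 of the range of the group, above Dixon's 95% limit for 4 values. This was 1 of 16 groups of values examined, of which chance gives about 0.8.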

How the results depend on the processing

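miR-101b-3p was the 1 member that met the criteria under DESeq2, limma-voom, each other scaling and each filter. The count of members was 2 with M1N and M2N as the only controls, 0 with TN1 and TN2, 0 by either adjusted p (over all small RNAs or the miRNA class), 3 with no fold criterion, and 0 to 2 when each mouse was left out. It was 0 without M1N or M5W, and 2 without TN1, M1W or M3W. Without M2N it was 1, but the member was miR-26b-5p (0.60). For the Ezh2 list, the count of 1 became 2 against M1N and M2N alone (miR-124-3p, and let-7f-5p at a lower level), 0 by either adjusted p, 3 with no fold criterion, and 1 to 2 when each mouse was left out (2 without M2N). Against TN1 and TN2 alone it was 1, but the entry was miR-144-3p, at a lower level. This entry had only 3 to 20 counts per mouse. Its WD mean was 0.515 of the mean of TN1 and TN2, but 1.56 of that of M1N and M2N. The share of all miRNA entries was not counted with no fold criterion, with a mouse left out, or under another program, scaling or filter. Member and list counts in those settings therefore cannot be set against the miRNA entries as a whole.

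M1N, M2N, M1W and M2W share numbers but are different animals. Deviations from group means correlated at -0.076 (number 1) and 0.237 (number 2). The crossed pairs gave 0.23 (M1N with M2W) and -0.067 (M2N with M1W), much like the numbered pairs. So few pairs cannot exclude a pairing by number. Over these 4 mice, the fit with the replicate block gave 3 members (miR-101b-3p, miR-26b-5p and miR-101a-3p) and 2 list entries (miR-124-3p and miR-138-5p), while 27.8% of the 418 miRNA entries met the criteria. The fit without it, added after seeing the data, also gave 3 and 2, with 28% of the entries.

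The log2 fold change ran over the settings from 0.30 to 1.09 for miR-101b-3p, 0.32 to 0.80 for miR-26b-5p, 0.20 to 0.67 for miR-101a-3p and 0.08 to 0.47 for miR-26a-5p, with no change of sign. For miR-101c it turned to -0.0049 against TN1 and TN2 alone, and ran from -0.16 to 0.17 when each mouse was left out (negative without M1N, TN2 or M2W). miR-101b-3p missed the fold criterion without M1N (0.51), M2N (0.53) or M5W (0.54). The log2 ratios ran, when each mouse was left out, from 0.19 to 0.53 (miR-101b-3p to miR-101a-3p), 0.12 to 0.35 (miR-26b-5p to miR-26a-5p) and -0.18 to 0.01 (miR-26a-5p to miR-101a-3p), with no test of these values. The contrast of the SD pairs for miR-101b-3p gave 0.74 with limma-voom (adjusted p = 0.0522) and 0.94 with column totals (adjusted p = 0.0225). The cause of these changes was not tested. The minor arms, at 0 to 16 counts per mouse, were too shallow for a diet comparison.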

Other observations

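The mature miRNAs whose levels followed miR-101b-3p most closely were ranked by Pearson r of log2 CPM over the 8 mice, among 365 mature miRNAs. The closest was miR-124-3p (r = 0.92), followed by miR-181d-5p (0.90), miR-30a-5p (0.90), miR-878-5p (0.90) and miR-743a-5p (0.89). All 5 were at their lowest in M1N and M2N, as miR-101b-3p was, and the points share that pair of libraries. Over the 4 WD mice alone, r was 0.98 for miR-124-3p and 0.97 for miR-743a-5p, but -0.58 for miR-878-5p. The other family members came much lower in this order, with miR-26b-5p at 0.53 (place 65), miR-101a-3p at 0.51 (place 70), miR-26a-5p at 0.18 (place 123) and miR-101c at -0.28 (place 195). miR-124-3p was taken as the highest of the 365, so its lead over the near-identical relative miR-101a-3p was set by that choice. By correlation of ranks (Spearman), miR-743a-5p (0.93) and miR-30a-5p (0.90) came ahead of miR-124-3p (0.86), and miR-101a-3p stood at 0.64. These values are given as descriptions, with no test.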
